A study of Mus musculus with 107 samples.

Results

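Octylhomovanillamide (OHV), a synthetic vanilloid related to capsaicin, was applied to the right ear of 5 mice that received no sulfur mustard, and the 5 ears were compared with ears that received no drug. The ears were chosen from the labels alone: animals numbered 500 and above, measured on 1 of the 2 Affymetrix mouse array designs of the series. The control was made of 3 left ears given the drug's vehicle, ethanol, and of 5 ears from 3 naive animals, with the ears of 1 naive animal averaged, so that 5 OHV ears stood against 6 control units. These are 5 of the 21 ears without mustard and of the 64 ears on this array design; the series holds 107 arrays in all.

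The study exposed mouse ears to sulfur mustard, alone or after a drug, and included each drug without mustard. OHV ears received 0.585 mg (1.995 µmol) in 30 µL of ethanol per the protocol; the sample label gives 0.6 mg. Ethanol ears received the vehicle in a volume that the labels do not give, naive ears received nothing, and an 8 mm skin biopsy was taken at 24 h. The other no-mustard arms were 4 right ears given 6.25 mg of dimercaprol in 10 µL and 4 right ears given 1.34 mg of indomethacin in 20 µL. In 5 further animals the same OHV dose was given 15 min before mustard (0.08 mg or 0.5 µmol, dissolved in 5 µL of methylene chloride), and 5 animals had mustard with no drug. No allele or transgene is named in the labels, and the strain, sex and age of the mice are not given in the sources used here. All OHV ears were right ears and all ethanol ears were left ears, so side and drug cannot be told apart in that contrast. The ethanol ears came from drug-treated animals, and 1 of them, of animal 520, was the opposite ear of an OHV ear.

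Capsaicin and other vanilloids open TRPV1, a cation channel of heat and pain sensing nerve endings. Its opening releases neuropeptides such as substance P (from the Tac1 gene) and calcitonin gene-related peptide (from Calca), which widen vessels and draw in fluid and leukocytes; sustained exposure leaves the endings unresponsive. Vanilloids have therefore been studied both as irritants and as anti-inflammatory agents, and OHV was among the candidates tried against mustard injury of the mouse ear. The comparison here asks what the compound did to the skin's mRNA without mustard, 24 h after application.

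The arrays gave a full skin profile in every ear. The 2% trimmed mean of the deposited signal ran from 103 to 159 in the OHV ears and from 67 to 163 in the control ears, the lowest being the ethanol ear of animal 507. All signals below were rescaled to bring that trimmed mean to 500 on every array. Basal keratin Krt14 was at 15590 to 20370 in OHV ears and 17180 to 27030 in control ears, and Myh1, a myosin of fast skeletal muscle, at 5657 to 8911 and 8032 to 10500, so that epidermis and the ear's muscle were both in the biopsies. RNA integrity, read as the 3′ over the 5′ signal of Gapdh on the log2 scale, averaged -0.14 ± 0.17 (SD, n = 5) and 0.05 ± 0.17 (n = 6). Correlations between ears over all probe sets were 0.931 to 0.95 within the OHV group, 0.921 to 0.963 between OHV and control ears and 0.915 to 0.964 within the controls, 3 ranges that overlapped.

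No probe set was called as different between OHV and pooled control ears. Of 15925 probe sets with a mean signal of at least 100, 0 (0%) passed limma at a Benjamini-Hochberg adjusted p under 0.05, and the smallest adjusted p was 0.739. At an unadjusted p under 0.05, 922 (5.79%) were found, 425 (2.67%) higher and 497 (3.12%) lower in OHV ears. All 5 OHV ears lay above every control unit for 46 probe sets (0.289%) and below every control unit for 49 (0.308%). The median log2 difference over all probe sets was 0.02.

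Under the main scaling, the data bound the size of a response relative to each array's trimmed mean as well. A change shared by most probe sets is removed by that scaling and is not bounded here. With arrays scaled on their hybridization control probes, the median log2 difference over all probe sets was 0.60. Under the main scaling those control probes were themselves lower on the OHV arrays, by a median of 0.64 log2 units. They carry no mouse RNA, and whether mouse mRNA changed as a whole was not tested. The constant added before log2 was taken also understates changes of dim probe sets, and so their intervals. The 95% confidence interval lay inside a 2-fold change either way for 14981 probe sets (94.1%), and inside 0.5 log2 units for 9461 (59.4%). It reached a rise of 2-fold or more for 564 (3.54%) and a fall of that size for 408 (2.56%). The median interval reached 0.33 log2 units to each side. The median SD between animals was 0.24 log2 units in both groups. Only 33 probe sets had an estimate of 2-fold or more, 25 of them higher in OHV ears.

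Each kind of control gave 0 calls as well. Against the 3 ethanol ears alone 0 probe sets passed (0%; limma, 992 at an unadjusted p under 0.05, smallest adjusted p = 0.691), and against the 3 naive animals alone 0 (0%; 538 unadjusted, smallest adjusted p = 0.406). Ethanol ears and naive animals, which make up the pooled control, differed in 0 probe sets themselves (0%; limma, 501 unadjusted, smallest adjusted p = 0.999). A different scaling gave another count. With arrays scaled on their hybridization control probes, which were lower on the OHV arrays, 10447 probe sets were called. All were higher in OHV ears, while the median over all probe sets moved to 0.60 log2 units. That scaling called 8735 against ethanol ears and 2 against naive animals. Under the main scaling the contrast with ethanol ears kept 0 calls but came near the threshold in some fits. Its smallest adjusted p was 0.0583 without the ethanol ear of animal 520 (limma, 1470 at an unadjusted p under 0.05). With only the ears compared in the fit it was 0.0643 (limma, 701 unadjusted).

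No measured gene of the vanilloid system or of the prostaglandin cascade was called. In the list of vanilloid channels, sensory neuropeptides and their receptors, 12 of 31 genes were measured and 0 were called. At an unadjusted p under 0.05 there were 0, where 5.79% of all probe sets passed, a share too small to expect 1 among 12. Of the 12, 9 were above 0, against 55.1% of all genes, and 10 had an interval inside 2-fold. The median log2 difference was 0.23 against 0.02 over all 9598 genes measured, the highest pathway list median after hair follicle genes. Trpv1, Trpv3, Trpa1, Calca and Ptgs1 were not analysed here. Tac1, the substance P precursor, was under the signal minimum, at 35.1 to 107 in OHV ears and 36.4 to 127 in controls. Trpv2, a channel of the same family, was at 156, 180, 153, 125 and 106 in the OHV ears of animals 516 to 520, at 153, 141 and 122 in the ethanol ears of animals 507, 515 and 520, and at 68.1 to 94.4 in the naive ears. The OHV values overlapped those of the ethanol ears and lay above those of the naive ears (log2 difference from pooled controls 0.33 ± 0.20 SE, adjusted p = 0.873). Ramp1, a subunit of the calcitonin gene-related peptide receptor, was at 740, 612, 761, 814 and 454 in OHV ears and 341 to 832 in control ears. Prph, the peripherin filament of peripheral neurons, was at 291, 173, 252, 285 and 285 against 109 to 343.

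Inflammatory genes gave the same picture. Ptgs2, the inducible cyclooxygenase, was at 140, 209, 162, 140 and 138 in OHV ears, at 154, 157 and 101 in ethanol ears and at 92.3 to 180 in naive ears. Its log2 difference was 0.16 with a 95% interval of -0.24 to 0.57. Among 19 measured prostaglandin and leukotriene genes 0 were called, and all 19 had an interval inside 2-fold. Il1b, an early cytokine, was at 417, 315, 224, 218 and 285 in OHV ears and 199 to 369 in control ears, an interval of -0.27 to 0.43 log2 units. Of 16 measured cytokine and chemokine genes 0 were called, with a median of -0.07. Ccl27a, a skin-homing T cell chemokine made by keratinocytes, lay at 201, 43.5, 153, 92.2 and 61.1 against 96.5 to 237 (log2 difference -0.52 ± 0.28 SE, adjusted p = 0.873).

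**Figure D1:**
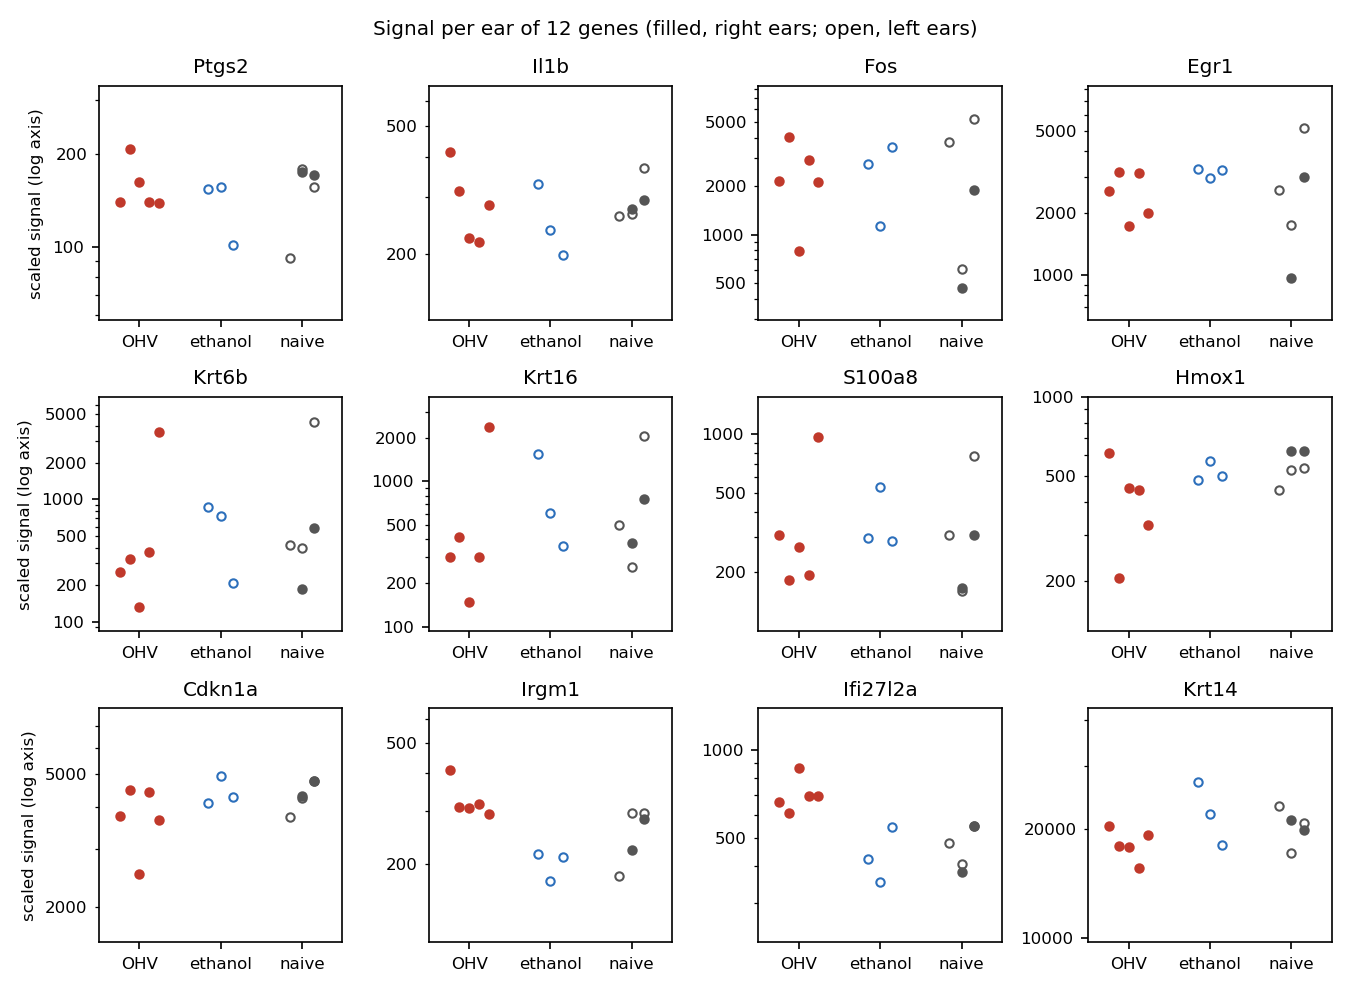
Scaled signal (log axis) of 12 genes in each OHV ear (red, animals 516 to 520 from left to right), ethanol ear (blue) and naive ear (grey); filled points are right ears and open points left ears. The groups overlap for most genes; Krt6b, Krt16 and S100a8 are high in 1 OHV ear (animal 520) and in 1 naive left ear (animal 503).

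Immediate early and injury genes varied more between animals than between groups. Fos, the AP-1 subunit that follows handling or injury within minutes, was at 2151, 4020, 788, 2889 and 2115 in OHV ears and from 469 to 5227 in control ears. Egr1, another immediate early factor, ran from 1726 to 3169 and from 966 to 5180. Of 29 measured AP-1 and immediate early genes 0 were called, with a median of -0.01. Klf4, a barrier factor of the upper epidermis that is also an immediate early gene, had the smallest p of that list, at 5503, 6254, 4230, 4932 and 5622 against 5793 to 7355 (log2 difference -0.30 ± 0.10 SE, adjusted p = 0.739).

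Keratins and calprotectin of injured epidermis were high in single ears. Krt6b, a keratin of hyperproliferative and wounded epidermis, was at 254, 325, 133, 372 and 3550 in the OHV ears of animals 516 to 520. In the ethanol ears it was at 867, 726 and 207, and in the naive ears at 427, 398, 184, 4321 and 589. The OHV ear of animal 520 and the left ear of naive animal 503 thus stood above all other ears of both groups. Krt16, a keratin of the same state, was highest in the same ears (302, 414, 149, 302 and 2381 against 258 to 2067). S100a8, a subunit of calprotectin from neutrophils and stressed keratinocytes, was too (307, 181, 267, 192 and 956 against 160 to 766). Within animal 520 the OHV ear exceeded the ethanol ear by 4 log2 units for Krt6b, 2.68 for Krt16 and 1.69 for S100a8. The level of the neutrophil marker list in that OHV ear was 8.49, against 7.89 to 7.96 in the other 4 OHV ears. That list includes S100a8 itself, so its level is not a separate observation. Among its other members Lcn2 was at 235.5, 168, 209, 264 and 758 in OHV ears. Clec4d, also a member, was at 139, 155, 132, 141 and 152. The part of neutrophils in these values was not tested. Over the 23 measured wound and stress keratinocyte genes 0 were called, the median was -0.16, and the group difference in Krt6b was -0.30 ± 0.60 SE.

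Stress pathways that mustard injury is known to engage were near control levels. Cdkn1a, the p53-induced cell cycle inhibitor p21, was at 3745, 4501, 2514, 4418 and 3641 in OHV ears and 3739 to 4941 in control ears. Of 23 measured p53 targets 0 were called, and the level of the list was 9.17 to 9.20 in every OHV ear, inside the 9.10 to 9.26 of the controls. Hmox1, heme oxygenase 1, was at 615, 205, 453, 443 and 326 against 444 to 626 (log2 difference -0.43 ± 0.27 SE, adjusted p = 0.873). Nqo1, a quinone reductase and classical Nrf2 target, was at 295 to 466 against 269 to 476. Among 29 measured Nrf2 and antioxidant genes 0 were called and all 29 had an interval inside 2-fold. The same held for the 21 measured heat shock genes. Mt2, a metallothionein, was at 6008 to 8753 against 6629 to 12030, and Cyp1a1, the main aryl hydrocarbon receptor target, at 1011 to 1396 against 835 to 1559.

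**Figure D2:**
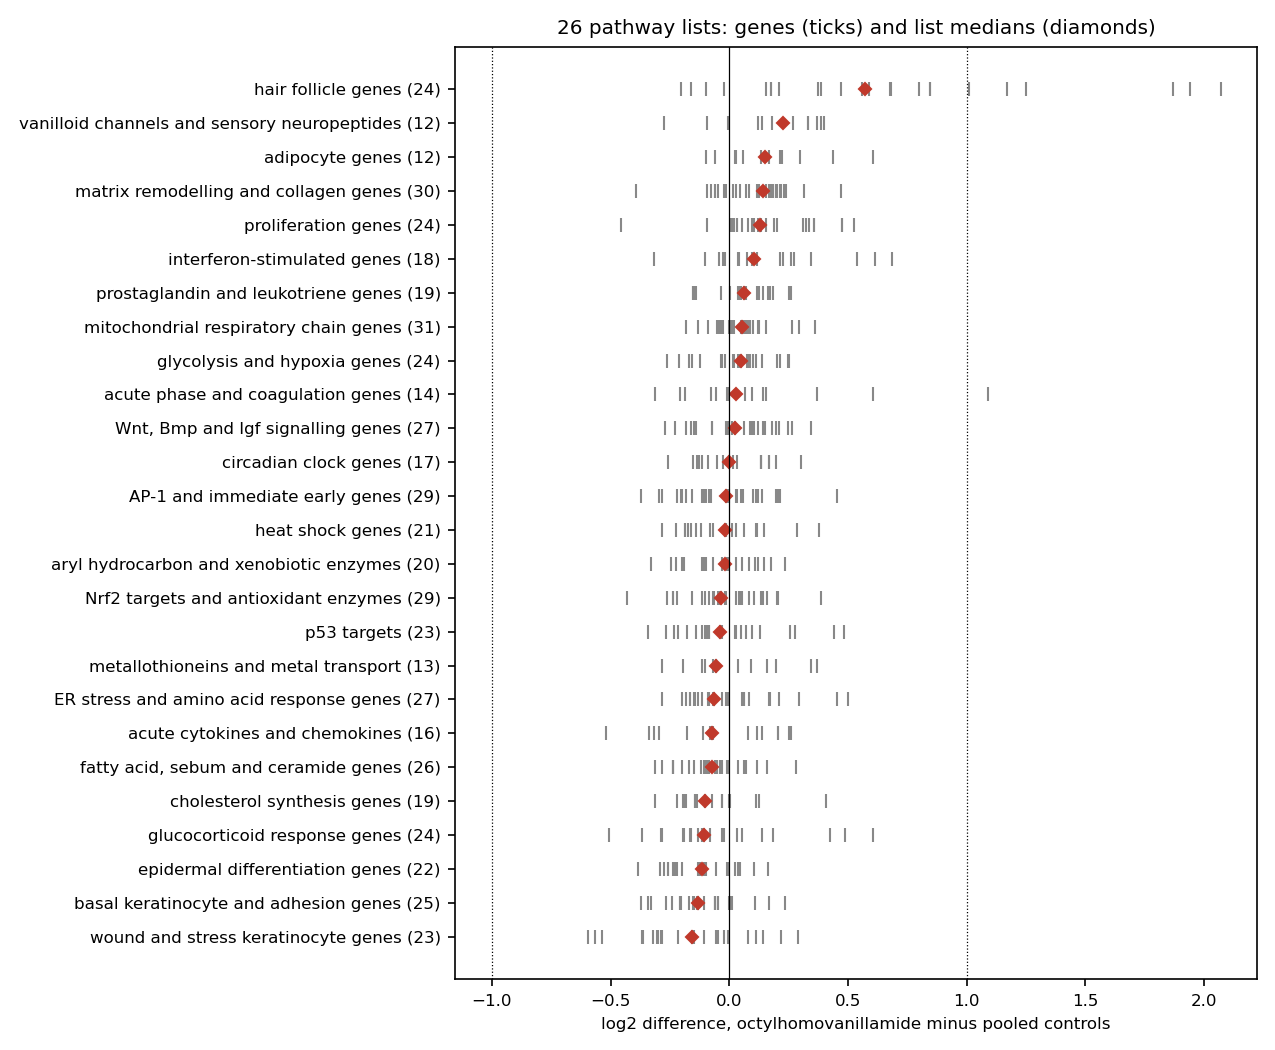
Log2 difference (OHV minus pooled controls) of each measured gene (grey ticks) and the median (red diamond) of 26 pathway lists, with the number of genes measured; dotted lines mark 2-fold. No gene is called, and every list median apart from hair follicle genes (0.57) lies between -0.16 and 0.23.

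Epidermal structure genes sat slightly below the controls as a group without any passing the test. Of 25 measured basal keratinocyte and adhesion genes 0 were called, 6 had an unadjusted p under 0.05 and lower values, where 3.12% of all probe sets did, and the median was -0.13. Of 22 measured differentiation genes 0 were called, 4 had such a p, and the median was -0.12; all genes of both lists had intervals inside 2-fold. Krt2, a keratin of the upper epidermis, was at 17010, 11420, 13560, 12180 and 13160 in OHV ears and 13780 to 20790 in control ears (log2 difference -0.39 ± 0.12 SE, adjusted p = 0.739). Cdh1, the epithelial cadherin, was at 1751, 2092, 1901, 2261 and 2292 against 2225 to 2975 (-0.33 ± 0.11 SE, adjusted p = 0.739). Cldn1, a tight junction claudin, was at 1686, 2005, 1426, 1661 and 1745 against 1921 to 2677, and no OHV ear reached the lowest control animal mean. That probe set had a log2 difference of -0.37, and the other Cldn1 probe sets were at -0.28 and -0.04. Under the scaling on hybridization controls the sign of these differences turned, to 0.22 for Krt2, 0.27 for Cdh1 and 0.23 for Cldn1, against a median of 0.60 over all probe sets. With the hybridization control level of each array as a covariate the log2 difference was 0.02 for Krt2 and 0.04 for both Krt14 and the cornified envelope protein Lor, which were at -0.24 and -0.28 without it.

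Among named genes, each represented by 1 probe set, interferon-stimulated genes held 2 of the 3 smallest limma p-values on the higher side, with no call. Irgm1, an interferon-induced GTPase, was at 409, 308, 306, 316 and 292 in OHV ears, at 216, 176 and 210 in ethanol ears and at 182, 294, 222, 294 and 281 in naive ears. Every OHV ear was above every control animal mean, while single naive ears reached the lowest OHV ear (log2 difference 0.54 ± 0.13 SE, adjusted p = 0.739). Ifi27l2a, a small interferon-induced mitochondrial protein, was at 661, 609, 866, 694 and 697 against 353 to 551, with no overlap of ears (0.61 ± 0.17 SE, adjusted p = 0.739). Usp18, which removes the interferon-induced modifier ISG15, was at 202, 190, 140, 156 and 163 against 99.5 to 174 (0.34 ± 0.16 SE, adjusted p = 0.844). Over the 18 measured genes of the list 0 were called, 13 were above 0, 3 had an unadjusted p under 0.05 and higher values, where 2.67% of all probe sets did, and the median was 0.11. The list level was 7.96 to 8.13 in OHV ears and 7.59 to 8.05 in control animals.

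The other genes with the smallest p had overlapping or narrowly separated ears. Socs2, a suppressor of growth hormone and cytokine signalling, was at 302, 191, 284, 223 and 173 in OHV ears and 53 to 239 in control ears (log2 difference 0.92 ± 0.27 SE, adjusted p = 0.739). Tef, a clock-controlled transcription factor, was at 2565 to 3169 against 2010 to 2896 (0.30 ± 0.09 SE, adjusted p = 0.739). Stx18, a syntaxin of the endoplasmic reticulum, was at 513 to 601 against 250.5 to 494. On the lower side, Myo6, the minus-end directed myosin VI, was at 415, 321, 262, 420 and 383 against 394 to 675 (-0.61 ± 0.14 SE, adjusted p = 0.739). Emp1, an epithelial membrane protein, was at 2310, 1580, 1086, 2671 and 2176 against 2474 to 4271 (-0.75 ± 0.20 SE, adjusted p = 0.739). Arcn1, a subunit of the COPI vesicle coat, was at 1155 to 1826 against 1925 to 2351, and Rpl37, a large ribosomal subunit protein, at 2363 to 2837 against 2770 to 3973. For 3 of these genes the other probe sets did not all go the same way. For Arcn1 the other probe set was at 0.17 where the one printed was at -0.44. For Stx18 the others were at -0.18, 0.17 and 0.04 against 0.43, and for Tef at -0.06 and 0.71 against 0.30.

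Cell type markers show how the 5 biopsies varied among themselves. In bulk skin, fewer cells of a type and less RNA per cell cannot be told apart. The fibroblast list (10 genes measured) was at 11.53, 11.54 and 11.52 in the OHV ears of animals 516, 518 and 519 but at 10.73 and 10.69 in those of animals 517 and 520, against 10.9 to 11.4 in control animals. Mast cell markers (8 genes) split the same ears, at 8.78, 8.40 and 8.41 against 7.61 and 7.85, with controls at 7.76 to 8.19. Endothelial markers (11 genes) did too, at 8.65, 8.43 and 8.48 against 7.74 and 7.91, with controls at 7.80 to 8.28. Among their members Mcpt4, a mast cell chymase of connective tissue, was at 694, 86.2, 442, 302 and 135 in OHV ears and 28.0 to 236 in control ears (log2 difference 1.18 ± 0.56 SE, adjusted p = 0.851). Mcpt4 had the highest difference of the 8 measured mast cell genes, of which 6 were above 0, and Mcpt2 the lowest at -0.47. Adipoq, the adipocyte hormone adiponectin, was at 1247, 512, 1063, 1231 and 855 against 399 to 1006. Skeletal muscle markers (23 genes) had the same ears higher and lower. They were at 11.77, 11.57 and 11.45 in the OHV ears of animals 516, 518 and 519. In those of animals 517 and 520 they were at 10.89 and 11.25, with control animals at 11.1 to 11.6. Their part in the differences given above was not tested, beyond the 0 calls that a fit with the muscle level as a covariate also gave.

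**Figure D3:**
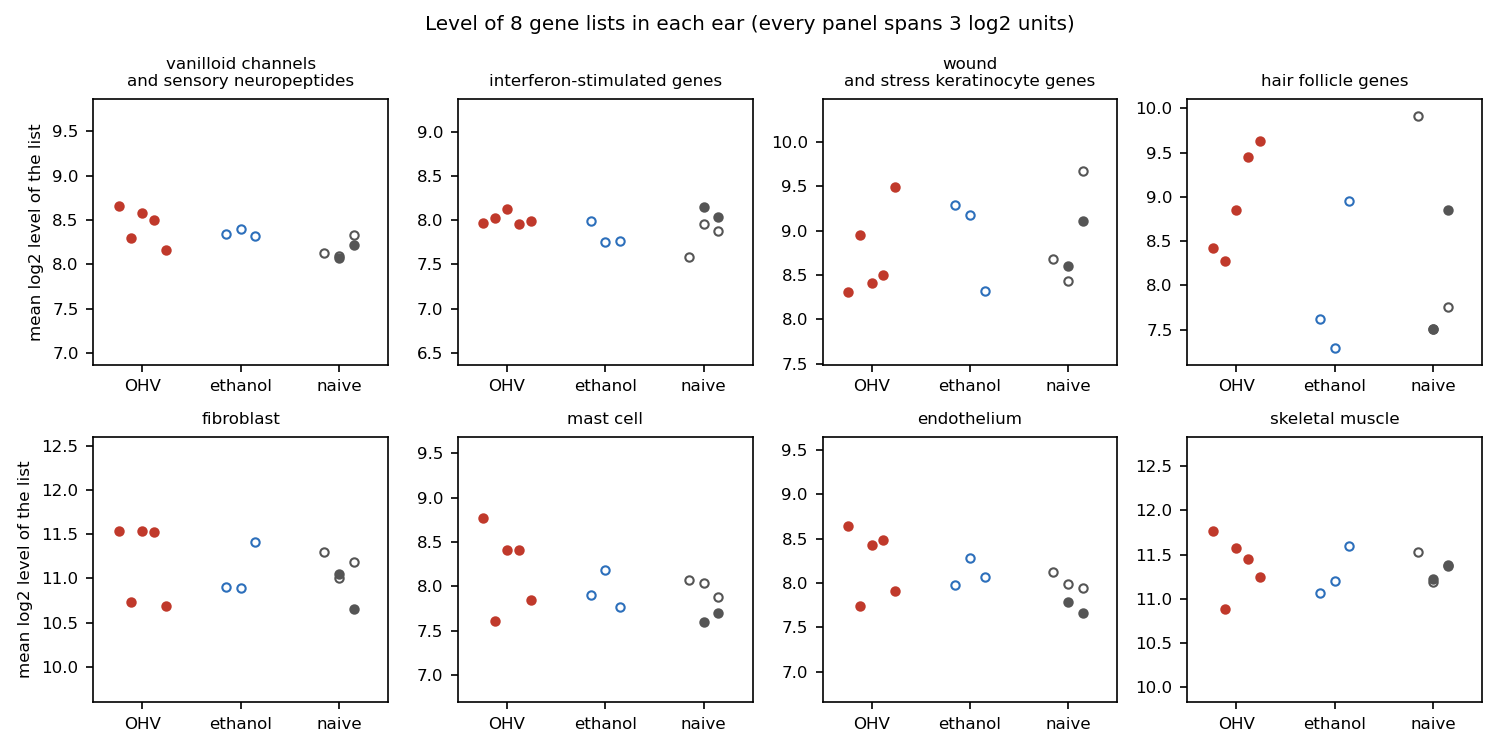
Mean log2 level of 8 gene lists in each OHV (red), ethanol (blue) and naive (grey) ear; filled points are right ears and open points left ears, and every panel spans 3 log2 units. Fibroblast, mast cell and endothelial markers separate OHV animals 516, 518 and 519 from 517 and 520, and hair follicle genes spread widest, from 7.30 to 9.91 in control animals.

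Hair follicle genes gave the largest list median and the widest spread. Of 24 measured genes 0 were called, the median log2 difference was 0.57, and 10 of 24 had an interval inside 2-fold. The list level was 8.42, 8.27, 8.85, 9.44 and 9.63 in OHV ears, 7.62, 7.30 and 8.96 in ethanol ears, and 9.91, 7.51, 7.51, 7.76 and 8.85 in naive ears. Both ears of animal 520 were thus high, whichever was given OHV. Krt27, an inner root sheath keratin of growing hair, was at 568, 443, 726, 1081 and 1583 in OHV ears, at 40.3, 40.1 and 832 in ethanol ears and at 811, 98.8, 75.6, 92.8 and 460 in naive ears (2.07 ± 0.76 SE, adjusted p = 0.807). Tchh, trichohyalin of the same sheath, followed at 140, 227, 378, 644 and 957 against 7.61 to 707 (1.94 ± 0.88 SE, adjusted p = 0.844). The control animals fell into low and high ears for both genes, and the OHV ears lay within their range or above it.

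Set against the other drugs given without mustard, OHV ears differed in 0 probe sets from dimercaprol ears (0%; limma, 686 at an unadjusted p under 0.05, smallest adjusted p = 0.99). From indomethacin ears they differed in 0 as well (0%; 1629 unadjusted, smallest adjusted p = 0.0813). Dose, volume and compound differed between these arms. Indomethacin itself differed from the same pooled controls in 9 probe sets (0.0565%), among them 2 of Tsc22d3, a glucocorticoid-induced leucine zipper, and 1 each of Txnip, an inhibitor of thioredoxin, and Sostdc1, a Wnt and Bmp antagonist of the follicle. These names were chosen after their values were seen. The log2 difference for Txnip was 1.35 after indomethacin and 0.23 after OHV, and OHV minus indomethacin was -1.13 ± 0.20 SE (adjusted p = 0.0813). For Sostdc1 the values were -1.42 and -0.03, with OHV minus indomethacin at 1.39 ± 0.25 SE (adjusted p = 0.0813). A call in the indomethacin contrast and none in the OHV contrast was thus not a called difference between the drugs.

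The same dose of OHV given before mustard was accompanied by more called differences than OHV alone. Among animals with mustard, OHV-pretreated ears and ears with mustard and no drug differed in 2879 probe sets (18.1%). The difference of differences, OHV before mustard against OHV without mustard, passed for 723 probe sets (4.54%), 513 higher and 210 lower with mustard. In the deposited values without rescaling the split was 2215 higher and 11 lower, and the median over all probe sets moved to 0.54 log2 units. The labels of the mustard ears name no ethanol and do not say whether the vehicle was given. If it was not, vehicle and drug cannot be told apart among the animals with mustard.

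The genes with the largest differences of differences, 8 in each direction, are described here by single ears; they were chosen for that difference, after the values were seen. Mt4, a metallothionein of stratified epithelium, was at 6256 to 7364 in OHV ears without mustard and 4220 to 6816 in OHV-pretreated mustard ears, but at 1393, 394.5, 602, 4861 and 735 in the mustard ears of animals 1, 3, 5, 36 and 37. Its log2 difference was 2.45 ± 0.37 SE before mustard and -0.19 ± 0.08 SE without (difference 2.64, adjusted p = 0.00604). Cxcl2, a neutrophil chemokine, was at 68.5 to 194 in OHV ears without mustard, at 67.4 to 353 in pretreated ears and at 877, 1634, 3138, 122 and 5599 in mustard ears. Here the log2 difference was -3.03 ± 0.60 SE before mustard and -0.30 ± 0.29 SE without (difference -2.74, adjusted p = 0.0421). The call for Cxcl2 was lost in 21 of 37 alternatives, among them quantile normalization and 13 that left out 1 ear or animal, against 3 of 37 for Mt4. Lcn2, an iron-binding acute phase protein, was at 168 to 758, 380 to 1403 and 892 to 3107 in those 3 groups (difference -2.15, adjusted p = 0.018; lost in 4 of 37 alternatives). In all 3 genes the mustard ear of animal 36 was nearest to the pretreated ears.

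**Figure D4:**
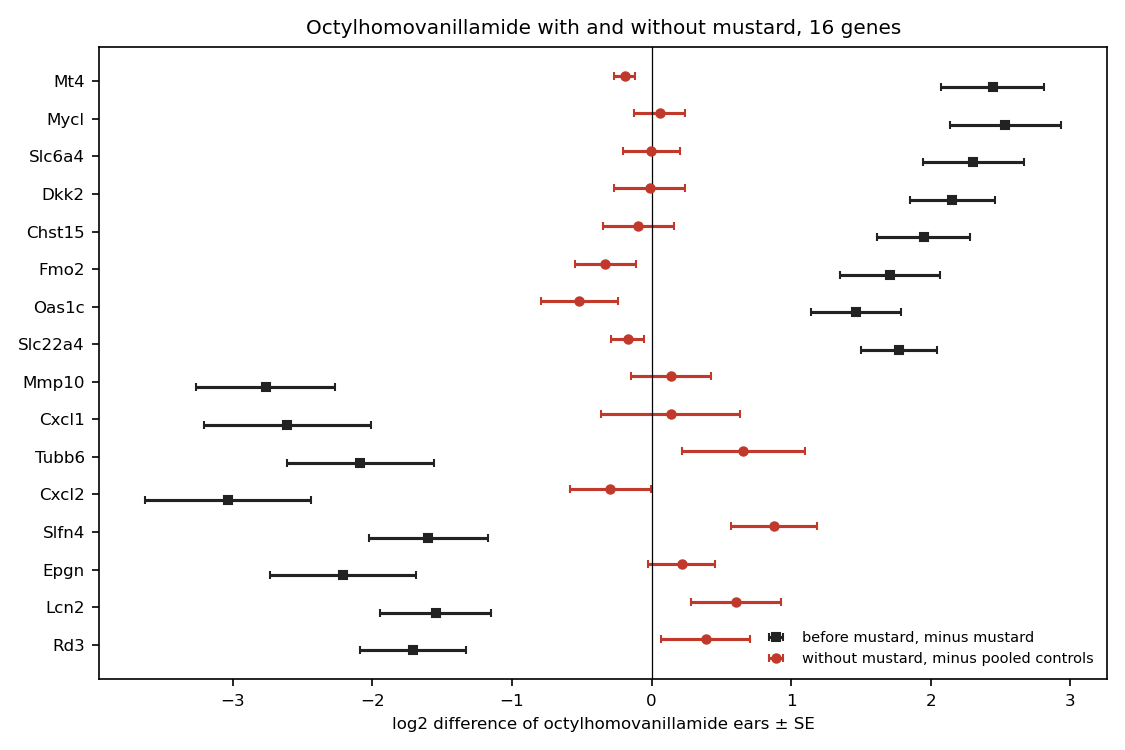
Log2 difference ± SE of OHV ears for 16 genes, before mustard (black squares, minus mustard ears, 5 against 5) and without mustard (red circles, minus pooled controls, 5 against 6). Differences before mustard reach -3.03 and 2.54, while those without mustard lie between -0.52 and 0.88.

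That count rests on the mustard arrays. The trimmed mean signal was 117, 131, 86.3, 137 and 66.9 in the mustard ears of animals 1, 3, 5, 36 and 37, and 121 to 213 in the pretreated ears. With array brightness as a covariate 3 probe sets passed, without the mustard ears of animals 5 and 37 there were 0 (limma, 1884 at an unadjusted p under 0.05), and with only the ears compared in the fit 56. Leaving out the mustard ear of animal 36 gave 1961, of animal 3 gave 297, of animal 5 gave 341 and of animal 37 gave 199. Leaving out the pretreated ears of animals 28 and 30 gave 281 and 374.

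The hybridization controls, bacterial and phage transcripts spiked in to check each array, were lower in OHV ears. All 18 such probe sets were below the controls after scaling, with a median log2 difference of -0.64, each at an unadjusted p under 0.05, and the smallest adjusted p was 0.674. Their mean log2 signal was 10.05 in the OHV ear of animal 516 and 9.24 to 9.39 in the other 4, against 9.77 to 10.5 in the control animals. In the deposited values the difference was -0.51. Probe sets whose identifier marks possible cross-hybridization to other sequences (_x_at) made up 7.15% of those tested. The probe sets printed for Krt14, Myh1, Ccl27a and Rpl37 are of this kind. Such probe sets made up 18.3% of those lower at an unadjusted p under 0.05 in limma and 6.35% of those higher. Their median log2 difference was -0.04 against 0.02 for the others. The part of either in the small differences given above was not tested beyond a fit with the spike-in mean as a covariate, which called 0 and left 610 probe sets at an unadjusted p under 0.05.

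**Figure D5:**
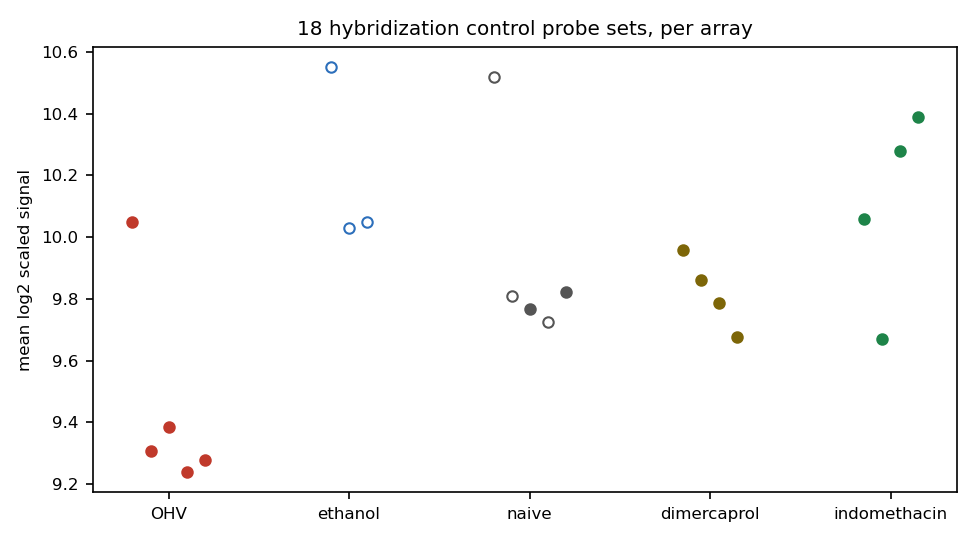
Mean log2 scaled signal of 18 hybridization control probe sets on each array of the no-mustard ears, by group; filled points are right ears and open points left ears. The arrays of 4 OHV ears sit at 9.24 to 9.39, below every other array, and that of animal 516 at 10.05.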

How the data were processed

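Total RNA (10 µg) from ear biopsies was hybridized to Affymetrix arrays. The authors' deposited values are intensity signals per probe set on a linear scale, computed with MAS5 per the submitters' processing notes; its version and scaling are not given in the sources used here. Groups were read from the treatment labels. Signals were divided by their array's 2% trimmed mean and multiplied by 500, and 16 was added before log2 was taken; 64 control probe sets were left out and those with a mean of at least 100 over all ears of this array were kept, 15925 of 22690 (9598 genes). Such a fold understates the change of dim probe sets.

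Models came from limma 3.58.1 (lmFit, eBayes with trend), run in R 4.3.3 with data.table (1.17.8), and were tested on simulated data. All no-mustard ears shared 1 fit; the difference of differences used all ears. Tests were 2-sided, with Benjamini-Hochberg adjustment over the kept probe sets. They measure the spread between these animals, whose number limits the precision.

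Gene names came from the platform annotation: 20393 probe sets carry 1 symbol, 691 several and 1606 none, and all symbols already matched RefSeq. A gene was represented by its probe set with the highest mean. Genes named are those with the smallest unadjusted p in each direction (12 and 12, since none was called), the 3 genes of each list with the smallest p, and a panel of 32 genes, of which a part is printed. Genes with only a predicted or clone name were left out of the ranking by p. The members and the 26 pathway and 19 marker lists were chosen with earlier results of these data known.

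Ears of the same animal were checked for shared deviations from their group means: correlations were -0.123 to 0.0625 over 5 pairs, against a mean of 0.000667 over 172 pairs of other ears. The label of animal 520 ties 1 ethanol ear to 1 OHV ear, and a fit with the animal as a random block was an alternative. Other alternatives changed the scaling, pseudocount, filter, variance trend, covariates, controls and ears. The second array design was not used here.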

Additional observations from a re-analysis of the deposited data

Results flagged for a closer look

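Several single ears were flagged by Dixon's test at the 95% level, which flags about 1 in 20 groups by chance. It was run on the gene lists, on genes named in the text and on array measures, in both groups. Flags by chance are therefore to be expected among those below. Log2 levels of the scaled signal are given. Among OHV ears, Irgm1 was at 8.73 in animal 516 against 8.27 to 8.37 in the other 4. Gigyf2, a translation regulator, was at 8.70 in animal 520 against 8.55 to 8.57. Sdhc, a subunit of succinate dehydrogenase, was at 11.03 in animal 518 against 10.56 to 10.69 (its group log2 difference was 0.29, and -0.02 on its other probe set). Ccl8, a monocyte chemokine, was at 9.34 in animal 517 against 9.76 to 9.88, and Prph was at 7.56 in the same ear against 8.07 to 8.26. The neutrophil marker level was 8.49 in animal 520 against 7.89 to 7.96, in the ear that was also high in Krt6b. S100a8, high there as well, is itself a member of that marker list. The mean of the hybridization controls was 10.05 in animal 516 against 9.24 to 9.39.

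Among control animals, the ethanol ear of animal 515 was at 11.39 for Cldn1 against 10.99 to 11.11 in the other 5. For H2-Eb1, a class II antigen chain, it was at 11.46 against 10.16 to 10.63. Kdr, a receptor of endothelial growth factor, was at 8.98 in the ethanol ear of animal 507 against 8.57 to 8.71.

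The difference between ears with and without OHV was itself called as different with and without mustard for 723 probe sets. That count was 3 with array brightness as a covariate and 0 without the mustard ears of animals 5 and 37. The labels of the mustard ears name no ethanol and do not say whether the vehicle was given. If it was not, vehicle and drug cannot be told apart there. Control probe sets that no comparison uses gave a median log2 difference of -0.639 between OHV and control ears, although they carry no mouse RNA. Neither pattern's cause was tested.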

How the results depend on the processing

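OHV against pooled controls stayed at 0 calls in 28 of 29 alternatives, including each ear or naive animal left out (smallest adjusted p 0.392 to 0.979), quantile normalization, no rescaling, either kind of control alone, each covariate and the animal as a random replicate block (0 calls, consensus correlation 0.00527). With the block the difference of differences had 841 calls; no other comparison gained a call and no named gene lost one. The exception was scaling on the hybridization controls, which were lower on the OHV arrays. It was chosen after seeing the data. It moved the median of all probe sets by 0.60 and gave 10447 calls (434 of the list genes), 8735 against ethanol ears, 2 against naive animals, 5147 against indomethacin and 0 for the difference of differences (limma, 1225 at an unadjusted p under 0.05). Under it 13 named genes with values below 0 were called higher: Lor 0.33, Dmkn 0.35, Krtdap 0.41, Krt14 0.365, Krt5 0.40, Col17a1 0.47, Ighm 0.49, Krt79 0.47, Elovl3 0.57, Cyp1a1 0.57, Krt10 0.385, Krt15 0.54 and Scd1 0.46, each under that median. The cause was not tested.

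Against indomethacin, 1 probe set was called with only the ears compared, 3 with the muscle covariate, and 0 to 3 with an ear left out, the 3 without the indomethacin ear of animal 515. The difference of differences (723) became 2226 without rescaling, where the median moved by 0.54 and 2215 calls were higher, 357 with the Gapdh covariate, 3 with array brightness, 56 with only the ears compared, 0 without mustard ears 5 and 37 (limma, 1884 unadjusted; chosen after seeing the data), and 199 to 1961 with an ear left out. All 16 genes ranked there lost their call with brightness as a covariate or without those 2 ears. Array signals give no depth, and 5 against 6 units limit what can be called.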

Other observations

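Mitochondrial and metabolic genes hold further values close to zero. Of 31 measured respiratory chain genes 0 were called in limma and 3 had an unadjusted p under 0.05 and higher values, where 2.67% of all probe sets did; all 31 had an interval inside 2-fold. Ndufv2, a core subunit of complex I, was at 3655, 4176, 4170, 3527 and 4345 in OHV ears and 3092 to 3665 in control ears, a log2 difference of 0.27 ± 0.09 SE (adjusted p = 0.739); its other probe sets were at -0.13 and 0.02. Gsr, glutathione reductase, was at 730, 895, 546, 502 and 965 against 378 to 645 (0.39 ± 0.16 SE, limma, adjusted p = 0.844). Its other probe set was at 0.06.

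Of 24 measured glucocorticoid response genes 0 were called in limma. Glul, glutamine synthetase, was at 1836, 1188, 1422, 2768 and 1443 in OHV ears, at 2048, 3587 and 2950 in ethanol ears and at 1692 to 2168 in naive ears. Its log2 difference was -0.75 from ethanol ears and -0.26 from naive animals. From pooled controls it was -0.505 on this probe set and -0.18 on the other Glul probe set. In the acute phase list, Hp, the plasma haemoglobin binder haptoglobin, was at 698, 267, 548, 606 and 412 in OHV ears, at 291, 354 and 501 in ethanol ears and at 10.8 to 331 in naive ears, a log2 difference of 0.36 from ethanol ears and 1.83 from naive animals.

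The single animal with both ears in the comparison gives a view without differences between animals. In animal 520 the OHV ear minus the ethanol ear was 0.44 for Irgm1, 0.35 for Ifi27l2a, -0.48 for Myo6 and -0.65 for Emp1, in the same direction as the group differences, and -0.44 for Socs2, in the opposite one. That ethanol ear is part of the control of the group comparison, and 1 animal gives no test.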
